A study of Bos taurus with 6 samples.

Results

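The synthesis of prostaglandins and leukotrienes was followed through 10 genes of the arachidonic acid cascade in rumen epithelial primary cells (REPC), chosen by gene name among the 32183 genes of each expression table. Of these, 5 belong to the cyclooxygenase branch (PTGS1, PTGS2, PTGES, PTGDS and PTGIS) and 5 to the lipoxygenase and leukotriene branch (ALOX5, ALOX5AP, LTA4H, LTC4S and GGT1). Each name had 1 row in the tables. The genes were picked after the response of this pathway to butyrate was known, so their values in that contrast are given as a description, without tests.

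REPC came from the rumen lining of a single Holstein bull calf, 2 weeks old and raised on milk replacer alone. Butyrate, a short-chain fatty acid made by rumen microbes and an inhibitor of histone deacetylases, was added to the medium of 3 cultures at 5 mM for 24 h, and 3 control cultures were sequenced beside them. Each group carries the replicate numbers 1 to 3, and since all cells came from 1 animal, differences between cultures do not include differences between calves. Expression was given as FPKM, the number of sequenced fragments scaled by transcript length and library size, a level per transcript length that allows genes to be set in order.

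Arachidonic acid is released from membrane phospholipids by phospholipases A2. In the cyclooxygenase branch, prostaglandin H synthases turn it into prostaglandin H2, from which terminal synthases make prostaglandin E2, prostaglandin D2 or prostacyclin. In the leukotriene branch, 5-lipoxygenase, helped by its activating protein, makes leukotriene A4, which is hydrolysed to leukotriene B4 or joined to glutathione to give leukotriene C4, the first of the cysteinyl leukotrienes. Short-chain fatty acids such as butyrate are absorbed across the rumen epithelium, where they are also known to drive its development.

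FPKM summed to between 678035 and 681912 in the control cultures and to between 619401 and 629037 in the butyrate cultures, and the deposited confidence bounds imply 5756609 to 6186809 effective fragments per culture. The differences below are on log2(FPKM + 0.1), with butyrate minus control, and their standard errors come from a limma fit over the 15813 genes whose FPKM averaged 0.1 or more. The median difference over these genes was 0.10, and it was 0.24 once each culture was rescaled to the same sum, so that differences of this size follow the scaling. Of the 10 genes, 9 passed this filter, and ALOX5 and GGT1 passed it through their butyrate values alone. Among the 9, all 3 butyrate values lay above all 3 control values in 7 genes and below them in 1, whereas over all genes tested 36.1% lay above and 28.9% below. Nothing is read from these counts, since the same contrast chose the genes. In bulk RNA, fewer cells of a type and less RNA per cell cannot be told apart.

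The labelled cell type was checked on marker genes. All 11 epithelial markers were above the filter, and their summed FPKM was 3331 to 3474 in control and 6705 to 6734 in butyrate cultures. Most of this gap came from abundant keratins such as KRT19, at a mean of 492 in control and 1953 after butyrate, and KRT7, at 929 and 1598. KRT14, KRT15, KRT18 and EPCAM had log2 differences of 2.78, 2.24, 1.56 and 2.44, whereas KRT5, CDH1 and DSP had -0.17, -0.03 and -0.03. At a Benjamini-Hochberg adjusted p under 0.05 in limma, 8 of the 11 rose and 1 fell, beside 32.5% and 25.9% of all genes tested. KRT8, a simple-epithelial keratin, was at 1309 to 1416 in control cultures. EPCAM, an epithelial adhesion molecule, was only at 0.406 to 0.737 there, with a mean of 3.33 after butyrate. Of the 10 fibroblast markers, 8 were above the filter, and the list had sums of 4356 to 4512 in control and 6374 to 6715 in butyrate cultures, led by VIM and COL1A1. At the same threshold in limma all 8 rose, beside 32.5% of all genes tested, with a median log2 difference of 0.68. A rise was thus not particular to the epithelial markers. The 4 smooth muscle markers had sums of 3437 to 3626 in control and 1033 to 1391 in butyrate cultures, nearly all from ACTA2 and CNN1. ACTA2, CNN1 and MYH11 fell, with log2 differences of -1.46, -1.90 and -2.02 (limma, Benjamini-Hochberg adjusted p = 4.0e-06, 1.8e-07 and 0.0032). DES, the muscle intermediate filament, rose from a low mean of 0.367 to 1.60 (limma, log2 difference 2.07, Benjamini-Hochberg adjusted p = 0.0074). The part of these mixed profiles in the results was not tested.

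**Figure D1:**
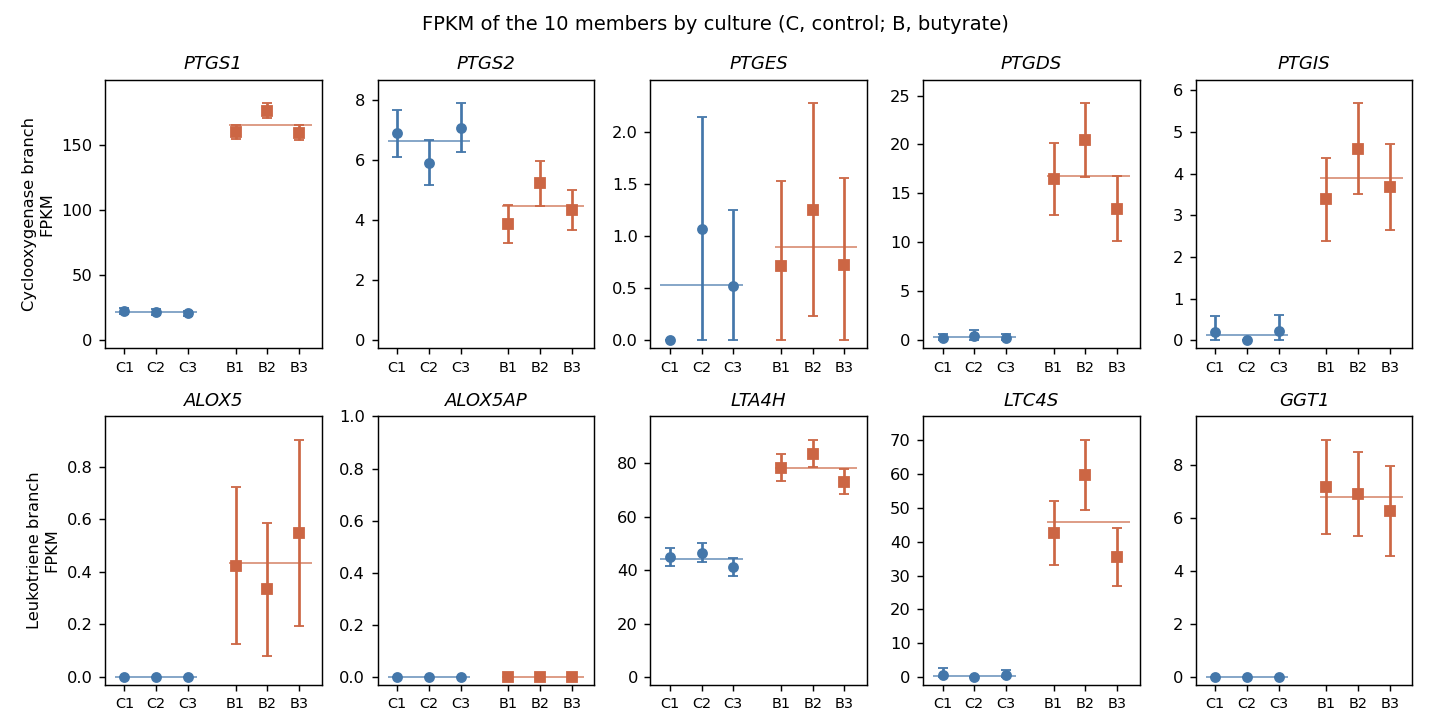
FPKM (y axis, linear, a scale for each panel) of the 10 genes in control cultures (C1 to C3, circles) and butyrate cultures (B1 to B3, squares). Vertical bars are the deposited confidence bounds of each FPKM and horizontal lines the group means of 3 cultures. PTGS1, PTGDS, PTGIS, LTC4S and GGT1 stand far apart between the groups, PTGS2 is lower after butyrate, PTGES overlaps, and ALOX5AP is at 0 throughout.

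The cyclooxygenases themselves went in opposite directions. PTGS1, on chromosome 11 from 93219287 to 93245048 in UMD3.1 coordinates, encodes cyclooxygenase 1, the form that most tissues carry without a stimulus. Control replicates 1 to 3 had an FPKM of 22.3, 21.7 and 20.7, and butyrate replicates 1 to 3 one of 159.6, 175.9 and 159.1. Values of single cultures are given in this order throughout. The groups were far apart, since the mean was 21.6 ± 0.787 (SD, n = 3) in control and 165 ± 9.55 (SD, n = 3) after butyrate, a ratio of 7.64. The log2 difference was 2.93 with a standard error of 0.06.

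PTGS2, on chromosome 16 from 69263775 to 69271833, encodes cyclooxygenase 2, the form known for its induction by cytokines and growth factors. Its FPKM was 6.89, 5.92 and 7.08 in the control and 3.88, 5.22 and 4.35 in the butyrate cultures. Each butyrate value was below each control value, but the gap between the groups, from 5.22 to 5.92, was no wider than the spread within them. The mean was 6.63 ± 0.622 (SD, n = 3) in control and 4.49 ± 0.682 (SD, n = 3) after butyrate, and the log2 difference was -0.56 with a standard error of 0.14. PTGS2 was the only one of the 9 genes with a lower value after butyrate.

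Because FPKM is per length, the cyclooxygenases can be set against each other within a culture. PTGS1 was 3.23, 3.67 and 2.93 times PTGS2 in the control cultures and 41.1, 33.7 and 36.6 times PTGS2 in the butyrate cultures. PTGS1 thus led in every culture, and the ratio did not overlap between the groups. This ratio is free of the scaling between cultures. The sum of both genes was 27.7 to 29.2 FPKM in control and 163 to 181 in butyrate cultures.

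The terminal synthases that use prostaglandin H2 differed among themselves. PTGDS, on chromosome 11 from 106247575 to 106250629, encodes the lipocalin-type prostaglandin D synthase. It stood at an FPKM of 0.207, 0.451 and 0.217 in the control and 16.4, 20.4 and 13.5 in the butyrate cultures. The control values rest on almost no reads, since their bounds imply about 1, 2 and 1 fragments, against 80.2, 119 and 64.5 after butyrate. The mean was 0.292 ± 0.138 (SD, n = 3) in control and 16.8 ± 3.51 (SD, n = 3) after butyrate.

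PTGIS, on chromosome 13 from 78319046 to 78370466, encodes prostacyclin synthase, a cytochrome P450 family enzyme. Its FPKM was 0.191, 0 and 0.213 in the control and 3.38, 4.60 and 3.67 in the butyrate cultures, with 46.1, 72.0 and 50.3 implied fragments in the latter. The values of control replicates 1 and 3 rest on only 0.933 and 1.16 implied fragments, so the control level is near the floor. Prostacyclin is a known product of endothelium, and of 5 endothelial markers PECAM1 and VWF rose, with log2 differences of 1.28 and 2.65 (limma, Benjamini-Hochberg adjusted p = 0.00082 and 3.7e-05). Of the other markers, CDH5 was listed at 0 in all 6 cultures, and KDR and TEK were below the filter. The summed FPKM of the 5 markers was 1.97 to 2.16 in control and 6.48 to 8.43 in butyrate cultures. Which cells held the PTGIS RNA was not tested.

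PTGES, on chromosome 11 from 100143653 to 100155090, encodes microsomal prostaglandin E synthase 1, which is often coupled to cyclooxygenase 2. It was low in every culture, at 0, 1.07 and 0.518 in the control and 0.710, 1.25 and 0.721 in the butyrate cultures. The groups overlapped, and the highest value rested on about 6 fragments. The log2 difference of 1.21 had a standard error of 0.80, so a difference was not detectable at this depth. Without control replicate 1, listed at 0, the log2 difference was 0.18, and without control replicate 2 it was 1.96. Among PTGDS, PTGIS and PTGES, PTGDS was the most abundant after butyrate and PTGES the least.

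The first step of the leukotriene branch was barely present. ALOX5, on chromosome 28 from 44729723 to 44776997, encodes 5-lipoxygenase. It was listed at 0 in all 3 control cultures and at 0.424, 0.334 and 0.547 in the butyrate cultures, which correspond to about 8, 7 and 9.59 fragments. At this depth 1 fragment of ALOX5 was worth an FPKM of about 0.0526, so that the control values allow a low level rather than show its absence. ALOX5AP, on chromosome 12 from 30136995 to 30159808, encodes the activating protein that presents arachidonic acid to 5-lipoxygenase. It was listed at 0 in all 6 cultures.

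ALOX5 and its activating protein are best known from leukocytes, so blood cell markers were read beside them. PTPRC, the pan-leukocyte surface phosphatase CD45, was listed at 0 in all 6 cultures, as were MS4A1 and LYZ. The 11 leukocyte markers with a row summed to 5.20 to 7.43 FPKM in control and 7.82 to 10.1 in butyrate cultures, most of it CD14, which was at 4.45 to 6.65 and 5.97 to 8.16. CD68, a lysosomal protein of macrophages, rose from a mean of 0.595 to 1.21 (limma, log2 difference 0.92, Benjamini-Hochberg adjusted p = 0.011). The mast cell genes CPA3, MS4A2 and FCER1A were listed at 0 throughout, and the 5 mast cell and basophil markers with a row summed to at most 0.0936 in any culture.

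LTA4H was the only gene of this branch above an FPKM of 1 in the control cultures. The gene, on chromosome 5 from 60647967 to 60678560, encodes leukotriene A4 hydrolase, which makes leukotriene B4 and is also an aminopeptidase of many cell types. Its FPKM was 44.9, 46.4 and 41.1 in the control and 78.3, 83.5 and 73.1 in the butyrate cultures. The groups did not overlap, at a mean of 44.1 ± 2.73 (SD, n = 3) in control and 78.3 ± 5.19 (SD, n = 3) after butyrate, a ratio of 1.77 and a log2 difference of 0.83 with a standard error of 0.07.

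LTC4S, on chromosome 7 from 1418468 to 1421416, encodes leukotriene C4 synthase, the membrane enzyme that joins leukotriene A4 to glutathione. Its FPKM was 0.558, 0 and 0.501 in the control and 42.6, 59.7 and 35.5 in the butyrate cultures. The butyrate values were spread more widely than those of the other abundant genes, with a mean of 46.0 ± 12.5 (SD, n = 3), and each rested on 81.7, 135 and 68.5 implied fragments. The bounds of the control values began at 0 and reached 2.79 and 2.07, all below the lowest bound of a butyrate culture, 26.9, while the size of the change from control is poorly fixed.

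GGT1, on chromosome 17 from 73435179 to 73453729, encodes gamma-glutamyltransferase 1, a surface enzyme of glutathione breakdown that also turns leukotriene C4 into leukotriene D4. It was listed at 0 in all 3 control cultures and at 7.18, 6.91 and 6.27 in the butyrate cultures, a mean of 6.79 ± 0.465 (SD, n = 3) from 66.3, 74.5 and 54.7 implied fragments. A single fragment of GGT1 was worth about 0.105 FPKM. No ratio is given against a group listed at 0.

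**Figure D2:**
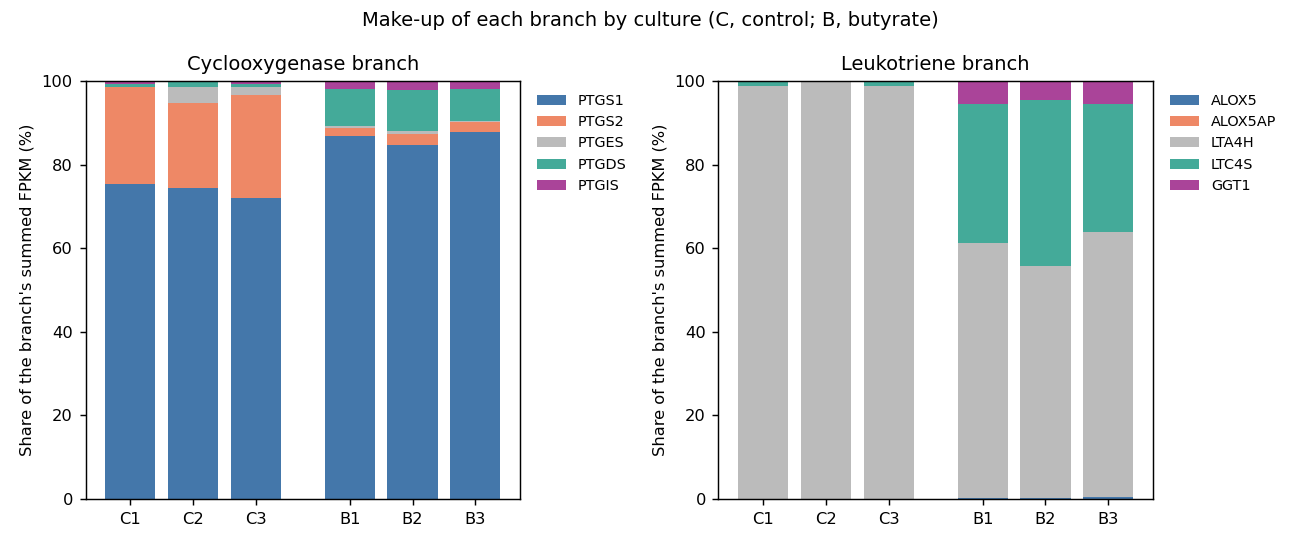
Share (%, y axis) of each gene in the summed FPKM of its branch, for control cultures C1 to C3 and butyrate cultures B1 to B3, cyclooxygenase branch on the left and leukotriene branch on the right. PTGS2 shrinks from at least 20.3% to at most 2.52% of its branch, and LTA4H, at 98.8% or more in control, gives way to LTC4S and GGT1.

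The make-up of both branches differed between the groups. In the cyclooxygenase branch, PTGS1 supplied 72.1% to 75.4% of the summed FPKM in control and 84.8% to 87.8% in butyrate cultures, while PTGS2 went from between 20.3% and 24.6% to between 2.11% and 2.52%. PTGDS took 0.699% to 1.55% of the branch in control and 7.42% to 9.86% in butyrate cultures. In the leukotriene branch, LTA4H supplied 98.8% to 100% in control and 55.5% to 63.3% after butyrate. LTC4S then held 30.8% to 39.7% and GGT1 4.59% to 5.59%. The ratio of LTC4S to LTA4H, enzymes that compete for leukotriene A4, was at most 0.0124 in a control culture and 0.486 to 0.716 in the butyrate cultures.

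The branches were also set side by side on the log2 scale, with a culture's median over the genes of a branch that passed the filter. The filter left out ALOX5AP, and ALOX5 and GGT1 passed it through their butyrate values alone, so the filter has a part in the second branch. This median lay between -1.71 and 0.23 in control and between 1.99 and 2.41 in butyrate cultures for the 5 cyclooxygenase genes. It lay between -3.32 and -1.96 in control and between 3.91 and 4.36 in butyrate cultures for the 4 leukotriene genes. The difference of the group means was 2.91 with an SD between cultures of 0.70 in the first branch and 6.57 with an SD of 0.56 in the second. The first value was 1.81 with a pseudocount of 1. In each butyrate culture the middle gene of the first branch was PTGS2, which was itself lower after butyrate. In the control cultures the middle gene was PTGDS or PTGES, each resting on few fragments. The first value thus compares different genes and does not give a rise shared by the branch. The second value is set by GGT1 and LTC4S, whose control values were at or near 0, and it moved with the pseudocount from 4.04 at 1 to 8.85 at 0.01. Without the filter, and so with ALOX5AP included, it was 6.10.

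**Figure D3:**
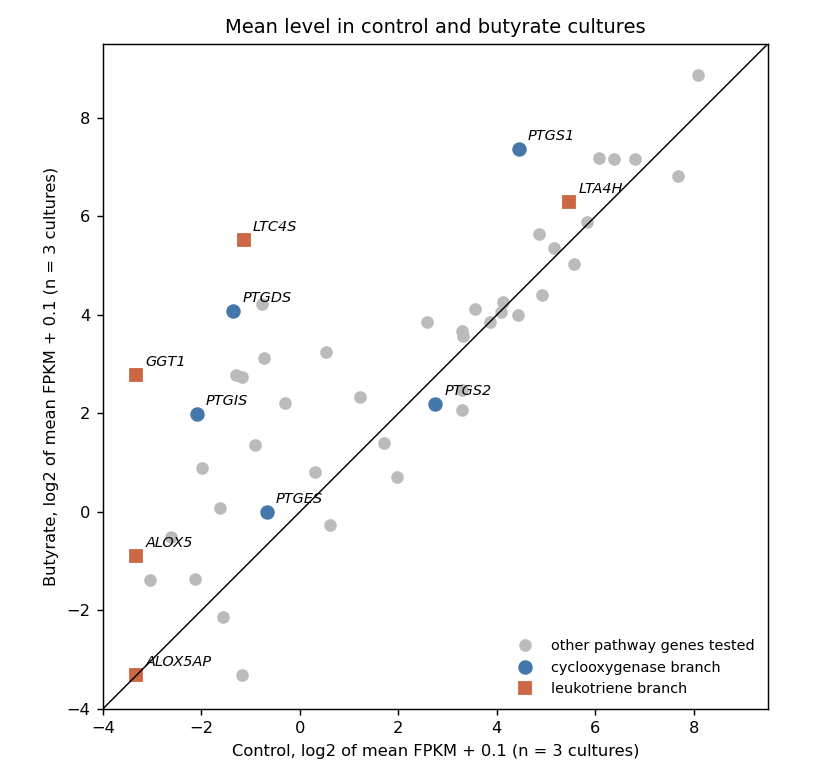
Mean level in butyrate cultures (y axis) against mean level in control cultures (x axis), both log2(FPKM + 0.1) with n = 3 cultures, for the cyclooxygenase branch (circles), the leukotriene branch (squares) and the 39 other pathway genes tested (grey). The line marks equal levels, and PTGS1, PTGDS, PTGIS, LTC4S and GGT1 lie well above it while PTGS2 lies below it.

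The order of the levels changed as well. In control cultures LTA4H was highest, followed by PTGS1 and PTGS2, each above the next in all 3 cultures, while PTGES, LTC4S, PTGDS and PTGIS followed with values that overlapped from each to the next. In butyrate cultures PTGS1 came first, above LTA4H, LTC4S, PTGDS and GGT1 in that order, each above the next in all 3 cultures. PTGS2 and PTGIS overlapped, and PTGES and ALOX5 came after them. Among genes above 0, the mean of PTGS1 was above 76.8% of them in control and above 96.3% after butyrate, and that of LTC4S above 27.3% and 87.9%.

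The genes next to these in the tables were read for reads that might be shared. LTC4S lies 1272 bp after MGAT4B and 903 bp before MAML1, whose log2 differences were -0.19 and 0.43. LCNL1, 69 bp before PTGDS, had a mean FPKM of 0.261 in control and 0.0675 in butyrate cultures. GGT1 lies 118 bp from GGT5, another gamma-glutamyltransferase, which rose, as given below. Only uniquely mapped reads were used, so reads shared with near-identical gene copies are not counted. PTGS1 overlaps LOC104973468, which was at 0.019 or less in either group mean. The tables give whole genes without exons or strand.

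Genes with the most similar profiles were found by Pearson's r of log2(FPKM + 0.1) across the 6 cultures, which is mostly the contrast between the groups. For LTC4S these were LRRC15, MAGEE2 and ACBD4, with r of 0.9991, 0.9990 and 0.9987, and 114 named genes were above 0.99. For PTGDS they were CAPN6, SYN3 and ZNF580, with r of 0.9997, 0.9996 and 0.9995, and 489 named genes were above 0.99. For PTGS2 they were MRPL50, RNF121 and DNTTIP1, with r of 0.9972, 0.9964 and 0.9948, and only 7 named genes were above 0.99. The scale of r hides the size of a change, since ZNF580 went from 44.1 to 86.1 FPKM and PTGDS from 0.292 to 16.8.

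Around these genes, a list of 72 other genes of eicosanoid metabolism was examined, from the release of arachidonic acid to the receptors. Of these, 66 had a row, 9 were listed at 0 in all cultures, 18 were below the filter and 39 were tested. At a Benjamini-Hochberg adjusted p under 0.05 in limma, 21 rose and 8 fell, which is 74.4% of those tested, beside 32.5% higher and 25.9% lower over all 15813 genes. Rescaled to TPM, 42 of the list were tested, and 22 rose and 8 fell beside 6018 and 3382 of all genes. With quantile normalization 40 were tested, and 19 rose and 11 fell beside 4348 and 4613. Rises were 73.3% and 63.3% of the list's calls under these scalings, against 64% and 48.5% of the calls over all genes. The balance over all genes thus turned with the scaling. As differentially expressed genes (DEGs), which needed a log2 difference beyond 2 and a p under 0.05 after Bonferroni correction, 4 rose and 0 fell in limma, beside 2.46% and 1.51% of all genes. At an unadjusted p under 0.05, 8 were lower. The median log2 difference of the 39 genes was 0.50, against 0.10 over all genes tested. Of the 39, ALOX12B and CYP4F2 passed the filter only through their butyrate values and PTGDR2 only through its control values.

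**Figure D4:**
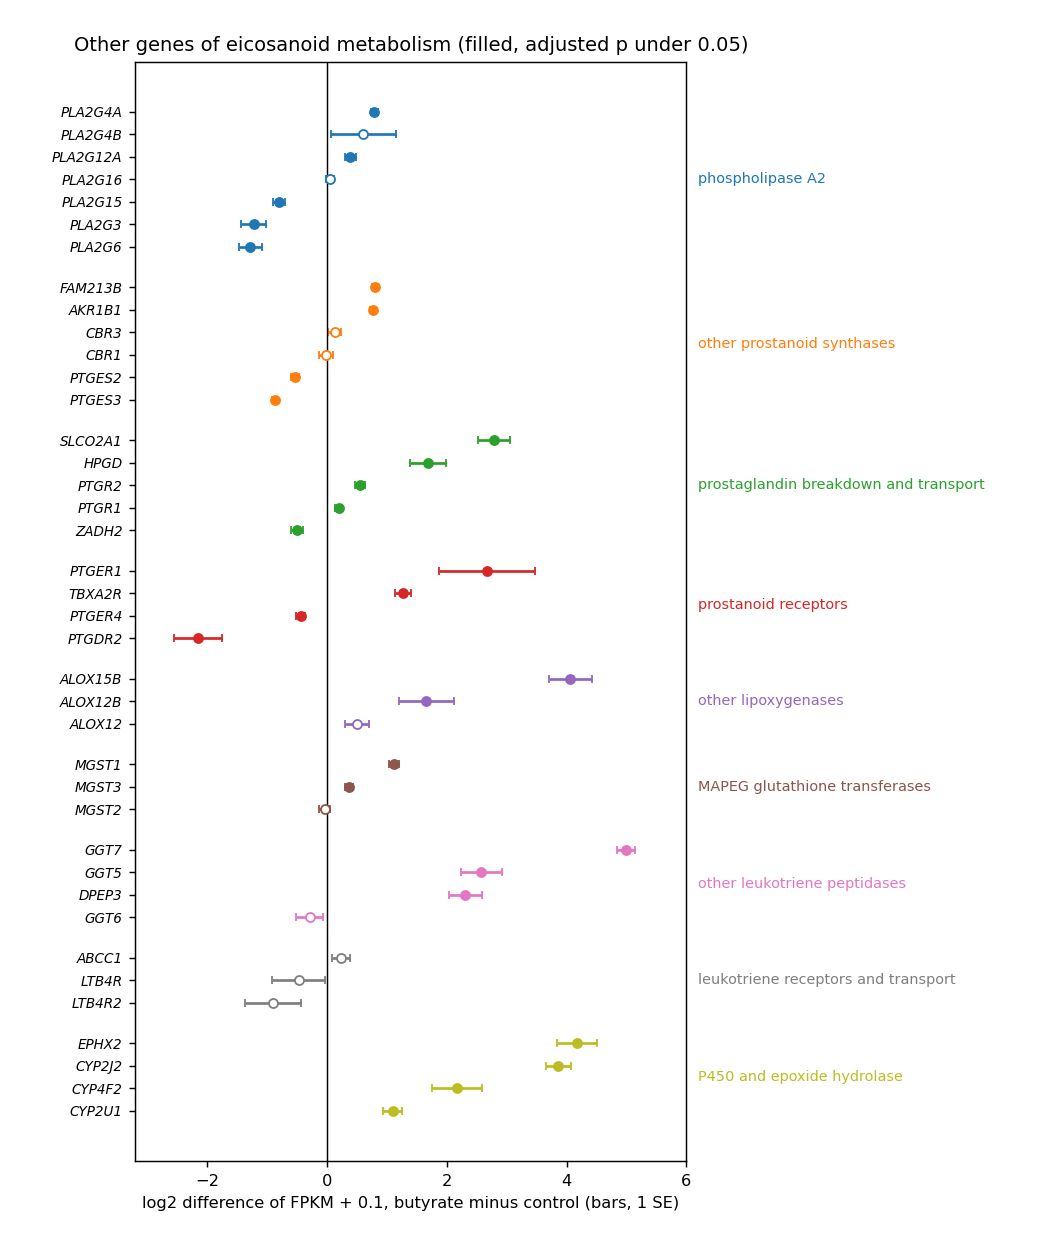
log2 difference of FPKM + 0.1, butyrate minus control (x axis), for the 39 other pathway genes tested, grouped by role, with bars of 1 standard error. Filled points have a Benjamini-Hochberg adjusted p under 0.05 in limma over all genes, and GGT7, EPHX2, ALOX15B and CYP2J2 lie farthest to the right.

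Among phospholipases A2, 2 of the 7 tested rose and 3 fell at the adjusted threshold, beside 32.5% and 25.9% of all genes tested. PLA2G4A, the cytosolic enzyme that prefers arachidonic acid, had an FPKM of 30.1, 28.0 and 28.6 in the control and 48.2, 50.1 and 52.1 in the butyrate cultures (limma, log2 difference 0.79, Benjamini-Hochberg adjusted p = 7.8e-06). PLA2G12A rose by 0.39 on the log2 scale. The secreted PLA2G3, the calcium-independent PLA2G6 and the lysosomal PLA2G15 fell, with log2 differences of -1.22, -1.28 and -0.80 (limma, Benjamini-Hochberg adjusted p = 0.0011, 0.00043 and 0.00019). PLA2G16 was abundant, at 51.2 to 61.1 FPKM over the 6 cultures, with a log2 difference of 0.05.

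Other prostanoid synthases were split. The prostaglandin E synthases PTGES2 and PTGES3 fell, PTGES3 from 201, 201 and 214 to 110, 118 and 108 FPKM (limma, log2 difference -0.87, Benjamini-Hochberg adjusted p = 1.6e-06). PTGES3, also the HSP90 co-chaperone p23, and PTGES2 were both far above PTGES in every culture. AKR1B1, an aldo-keto reductase with prostaglandin F synthase activity in cattle, rose from 274, 275 and 268 to 443, 503 and 452 FPKM, and FAM213B, a prostamide and prostaglandin F synthase, had a log2 difference of 0.80 (limma, Benjamini-Hochberg adjusted p = 3.6e-06 and 2.0e-06). HPGDS, the haematopoietic prostaglandin D synthase, was listed at 0 in all cultures, and TBXAS1, thromboxane synthase, was below the filter.

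Of 5 genes of prostaglandin breakdown and transport tested, 4 rose and 1 fell at the adjusted threshold, beside 32.5% and 25.9% of all genes tested. SLCO2A1, the prostaglandin uptake transporter, had an FPKM of 1.22, 0.821 and 1.99 in the control and 9.69, 9.69 and 8.64 in the butyrate cultures (limma, log2 difference 2.79, Benjamini-Hochberg adjusted p = 3.5e-05). HPGD, which oxidises prostaglandins to inactive forms, rose from between 0.189 and 0.255 to between 0.723 and 1.15. The reductase PTGR2 rose by 0.55, and ZADH2 had a log2 difference of -0.50. PTGR1, another reductase, passed the test at a log2 difference of 0.20, a size within the range that the scaling moves. Its call was lost without control replicate 2 or 3 or butyrate replicate 2 or 3, at log2 differences of 0.17 to 0.20.

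Among prostanoid receptors, 4 of 9 passed the filter. TBXA2R, the thromboxane receptor, rose from 6.23, 6.30 and 5.22 to 12.7, 14.1 and 16.6 FPKM (limma, log2 difference 1.27, Benjamini-Hochberg adjusted p = 4.5e-05). PTGER4, a prostaglandin E2 receptor and at 20.7 to 21.9 FPKM the most abundant of the 9 in control cultures, fell to between 14.6 and 16.6 (limma, log2 difference -0.44, Benjamini-Hochberg adjusted p = 0.0014). PTGDR2, a prostaglandin D2 receptor, fell from between 0.292 and 0.405 to about 0, but it passed the filter only through its control values. PTGER1 passed the test at a log2 difference of 2.67, but its values of 0.317, 0.140 and 0 and of 3.06, 0.308 and 1.92 overlapped. That call was lost without control replicate 3, butyrate replicate 1 or butyrate replicate 3, at log2 differences of 2.12, 2.07 and 2.40.

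On the leukotriene side, 4 peptidases were tested that act on the glutathione part of cysteinyl leukotrienes or belong to the same families. Of these, 3 rose at the adjusted threshold, beside 32.5% of all genes tested. The dipeptidase DPEP1 was below the filter, and DPEP2 had no row. GGT7 went from 0.547, 0.453 and 0.454 to 16.5, 20.1 and 18.9 FPKM (limma, log2 difference 4.99, Benjamini-Hochberg adjusted p = 7.7e-08). GGT5, which also converts leukotriene C4, went from 1.14, 0.448 and 0.544 to 3.26, 5.07 and 5.25 FPKM. The dipeptidase DPEP3 had a log2 difference of 2.31, and GGT6 one of -0.29 that did not pass. MGST1 and MGST3, membrane glutathione transferases of the family that holds LTC4S, ALOX5AP and PTGES, rose with log2 differences of 1.12 and 0.37 (limma, Benjamini-Hochberg adjusted p = 6.1e-06 and 0.0016), while MGST2, which can also make leukotriene C4, stood at 15.3 to 17.7 FPKM in every culture.

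Leukotriene receptors were scarce. CYSLTR2 was listed at 0, CYSLTR1 was below the filter, and LTB4R and LTB4R2 had log2 differences of -0.47 and -0.90 with standard errors of 0.44 and 0.46, which did not pass the test. ABCC1, an exporter of leukotriene C4, was at 9.15 to 10.5 FPKM in the control and 9.68 to 14.5 in the butyrate cultures, with overlapping groups.

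Other lipoxygenases and the epoxygenase branch held the DEGs besides GGT7. ALOX15B, a 15-lipoxygenase, had an FPKM of 0.152, 0.247 and 0.628 in the control and 6.94, 6.98 and 5.88 in the butyrate cultures (limma, log2 difference 4.06, Bonferroni-adjusted p = 0.041). ALOX12B, a skin-type lipoxygenase, rose to between 0.186 and 0.396, and ALOX12 was at 1.03 to 1.25 and 1.53 to 1.76 (limma, Benjamini-Hochberg adjusted p = 0.055). CYP2J2, a P450 that makes epoxides of arachidonic acid, went from 0.591, 0.366 and 0.559 to 7.63, 9.37 and 8.87 FPKM, and EPHX2, the soluble hydrolase of those epoxides, from 0.382, 0.425 and 0.118 to 6.87, 7.18 and 6.21 FPKM. Their log2 differences were 3.86 and 4.17 (limma, Bonferroni-adjusted p = 0.00064 and 0.017). CYP2U1, another P450 of fatty acids, rose from between 2.06 and 2.41 to between 4.41 and 5.89 FPKM (limma, Benjamini-Hochberg adjusted p = 0.00044). CYP4F2, a family member that hydroxylates leukotriene B4, was at 0 to 0.134 in the control and 0.519 to 0.704 in the butyrate cultures, but like ALOX12B it passed the filter only through its butyrate values, and its name is on 2 rows between which reads may be split. ALOX15B and EPHX2 were no longer DEGs, leaving 2, without control replicate 1 or without any 1 of the 3 butyrate cultures.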

How the data were processed

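RNA of 6 REPC cultures was sequenced as paired reads. According to the methods and the submitters' processing notes, the authors trimmed reads with Trim Galore 0.4.1, aligned them with STAR to UMD3.1, kept uniquely mapped reads and ran Cufflinks, and the deposited tables hold its FPKM for each gene with confidence bounds. Rows were joined by position, and starts were raised by 1 to count from 1. Chromosomes were assigned from where RefSeq's table of genes on ARS-UCD2.0 places most genes of a sequence. FPKM are not counts, so limma 3.58.1 in R 4.3.3 was run on log2(FPKM + 0.1) with a mean-variance trend over the 15813 genes whose FPKM averaged 0.1 or more. In all, 2 genes with a failed estimate were left out. Effective fragments were taken from the upper bounds as the square of 2 FPKM divided by the upper bound minus FPKM, an approximation. DEGs used the study's thresholds, a log2 difference beyond 2 and a p under 0.05 after Bonferroni correction, but limma in place of its Cufflinks test. Over all genes 389 rose and 238 fell as DEGs, fewer in each direction than the study reported. All p-values were adjusted over all genes tested. The p-values set a difference between groups against the spread between cultures of 1 calf, which limma moderates over all genes. The fit was also run on simulated data in which few genes were shifted and all of them upward, unlike these data, so nothing is drawn from it. The members and lists were chosen with earlier results of these data known. Other pathway genes are named if their adjusted p was under 0.05 or if they had the highest mean FPKM of a list without such a gene, and genes named beyond this were chosen after their values were seen. A name on 2 rows was taken at its higher mean. Sequences of the genes or proteins were not used here.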

Additional observations from a re-analysis of the deposited data

How the results depend on the processing

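Alternatives were pseudocounts of 0.01 and 1, no filter or a mean FPKM of at least 1, no trend, rescaling to TPM, quantile normalization, a replicate block, a fold threshold of 1 and each culture left out. The 4 upregulated DEGs of the wider pathway became 2 with a pseudocount of 0.01, without a filter or without the trend, and 2 to 5 with a culture left out. The 0 downregulated DEGs became 1 without the trend, and 8 genes fell at the Benjamini-Hochberg threshold in limma. That DEG was PTGDR2, which passed the filter only through its control values. The 21 rises and 8 falls at that threshold ranged from 17 to 26 and from 7 to 11, while the number of pathway genes tested ranged from 32 to 57. The difference of the cyclooxygenase branch was 1.81 with a pseudocount of 1, and that of the leukotriene branch 8.85 and 4.04 with pseudocounts of 0.01 and 1. The causes were not tested. The calls of PTGR1 and PTGER1 were also lost without the trend, and those of PTGER1 and ALOX12B with quantile normalization. PTGS2 stayed lower after butyrate under each alternative run.

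When each culture's deviation from its group mean was compared across genes, pairs with the same number correlated at 0.0228, -0.00431 and 0.00177, so the numbers were not taken to pair the cultures. With the replicate number as a block, 3 DEGs rose, and 21 genes rose and 8 fell at the adjusted threshold. Genes with few fragments, such as PTGES and ALOX5, are limited by depth.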

Other observations

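The deposited bounds allow the reads behind a low FPKM to be counted approximately. Of 15 values of the 10 genes with under 10 effective fragments, 10 lay within 0.05 of a whole number. The exceptions included the control values of LTC4S, at 0.250 and 0.405 effective fragments, where the FPKM of 0.558 and 0.501 was close to the 0.442 to 0.522 FPKM that 1 fragment of LTC4S was worth in the butyrate cultures.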
